A study of Homo sapiens with 24 samples.

Results

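Homologous recombination, Fanconi anemia and checkpoint kinase genes were read across 6 liver cancer cell lines in which SFPQ was or was not knocked down. The set was a list of 37 genes given by name, and 37 of 37 were found among the 23284 rows of the expression table. RNA with a poly(A) tail was measured in 24 libraries. SFPQ is a nuclear protein that binds RNA and DNA, and is a core part of paraspeckles. Each line gave 1 library in each of 4 groups. These were cells with the SFPQ siRNA (siSFPQ), cells with the control siRNA (siCTL), and the same pair of siRNAs in cells given TGF-beta at 2 ng/ml for 24 hours (siSFPQ + TGF-beta and siCTL + TGF-beta). The replicates are the lines HLE, SK-HEP1, Hep3b, Huh1, Huh7 and HepG2, all labelled as hepatocellular carcinoma (HCC) cells grown in DMEM with serum. The labels name a single knockdown condition with no rescue and no separate cultures within a line, so off-target effects of the siRNA and effects of SFPQ loss cannot be told apart.

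Homologous recombination repairs DNA breaks by copying an intact sister DNA. MRE11, RAD50, NBN and CtIP start the resection of the broken end, RPA coats the single strand that is laid bare, and BRCA1, PALB2 and BRCA2 prepare it for the search for matching DNA. The Fanconi anemia pathway acts where the strands of DNA are crosslinked: a core complex attaches ubiquitin to FANCD2 and FANCI, which recruits nucleases and recombination proteins, while ATM and ATR signal the damage through CHEK2 and CHEK1. Many of these genes are expressed mainly in dividing cells, and their RNA is therefore read here beside lists of G1/S and G2/M genes.

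The table holds FPKM, the fragments of a gene divided by its transcript length and by the mapped fragments of the library. A change below is the mean over lines of the difference in log2(FPKM + 1), which understates the change of genes at low levels, and it is given with its standard error (SE). A gene is called where its adjusted p is under 0.05, in limma with the line as a block and with Benjamini-Hochberg adjustment across every gene tested. All 37 genes passed the filter on low values, 1 FPKM in at least 6 of the libraries compared, in every comparison. The depth was estimated from the steps of low values at 6070000 to 29800000 fragments per library, with a median of 17100000. For 19 of the 37 genes at least 1 library held under 100 estimated fragments, and the lowest value, 19.2 fragments, belonged to EME1. These estimates use the longest annotated transcript of each gene, so they are too high where shorter transcripts prevail. SFPQ itself was at 23.5, 38.5 and 51.4 FPKM in siSFPQ cells (lowest, median and highest of the 6 lines), against 90.4, 176 and 247 FPKM in siCTL cells. With TGF-beta it was at 26.5, 37.7 and 54.6 FPKM in siSFPQ cells, against 84.7, 168 and 248 FPKM in siCTL cells, and the groups did not overlap in either case. Hepatocyte marker RNA was low in the libraries labelled Hep3b: 5 of 11 markers reached 1 FPKM in any of them, and ALB stayed at 0.514 to 0.951 FPKM. AFP differed from this: at 7.89 to 13.4 FPKM in Hep3b it overlapped Huh1 (11.3 to 33.2 FPKM). It lay below Huh7 and HepG2 and above HLE (0.672 to 5.72 FPKM) and SK-HEP1 (0.0894 to 0.283 FPKM). In Huh1, Huh7 and HepG2 all 11 markers reached 1 FPKM, and their sum ran from 1112 to 20410 FPKM, against 14.5 to 24.9 FPKM in Hep3b, 28.4 to 119 FPKM in HLE and 21.0 to 27.5 FPKM in SK-HEP1. The number of the 37 genes called on knockdown is therefore also given without Hep3b. Other counts below, such as those by role and of other gene lists, include it.

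Without TGF-beta, 17 of the 37 genes were lower in siSFPQ than in siCTL cells, 0 were higher and 20 were not called. That is 45.9% of the set, beside 15% of all 12010 genes tested that were called lower and 6.69% called higher. The 17 were BRCA1, BARD1 and BRIP1, XRCC2, MRE11A, RBBP8 and EXO1 of resection, FANCC, FANCG, FANCL, FANCD2 and FANCI of the Fanconi pathway, the kinases CHEK1 and CHEK2, and the nuclease genes SLX4, EME1 and GEN1. All 37 mean changes were below 0, beside 7137 of all 12010 genes tested. Their median was -0.41, beside -0.07 over all genes tested, and 34 of the 37 lay below that all-gene median. Of the 17 genes called lower, 13 were below 0 in each of the 6 lines, as were 15 of all 37 genes. The test with the line as a block favours genes that move alike in the lines, so the 13 describe the calls and are no separate support.

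In TGF-beta-treated cells, which are other libraries of the same lines, 22 of the 37 genes were lower in siSFPQ cells and 0 were higher. That is 59.5% of the set, beside 21.8% of all 12020 genes tested that were called lower and 8.47% called higher, and the median change was -0.46 beside -0.09 over all genes. Called lower in both comparisons were 16 genes. The share of all genes tested that was called in both was not counted, and both comparisons use the same lines and siRNAs. BARD1 was called only without TGF-beta, while BRCA2, RAD51C, RAD51D, FANCM, MUS81 and RPA2 were called only with it. The test of the difference between the comparisons, the interaction of siRNA and TGF-beta, called 0 of the 37 genes. The share over all 13493 genes tested was 0.252%. An unadjusted p under 0.05 was seen for 3 of the 37 genes, beside 1688 of the 13493. In neither comparison were PALB2, XRCC3, RAD54L, RAD54B, RAD52, RAD50, NBN, BLM, FANCA, FANCE, FANCF, ATM, ATR and RPA1 called.

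**Figure D1:**
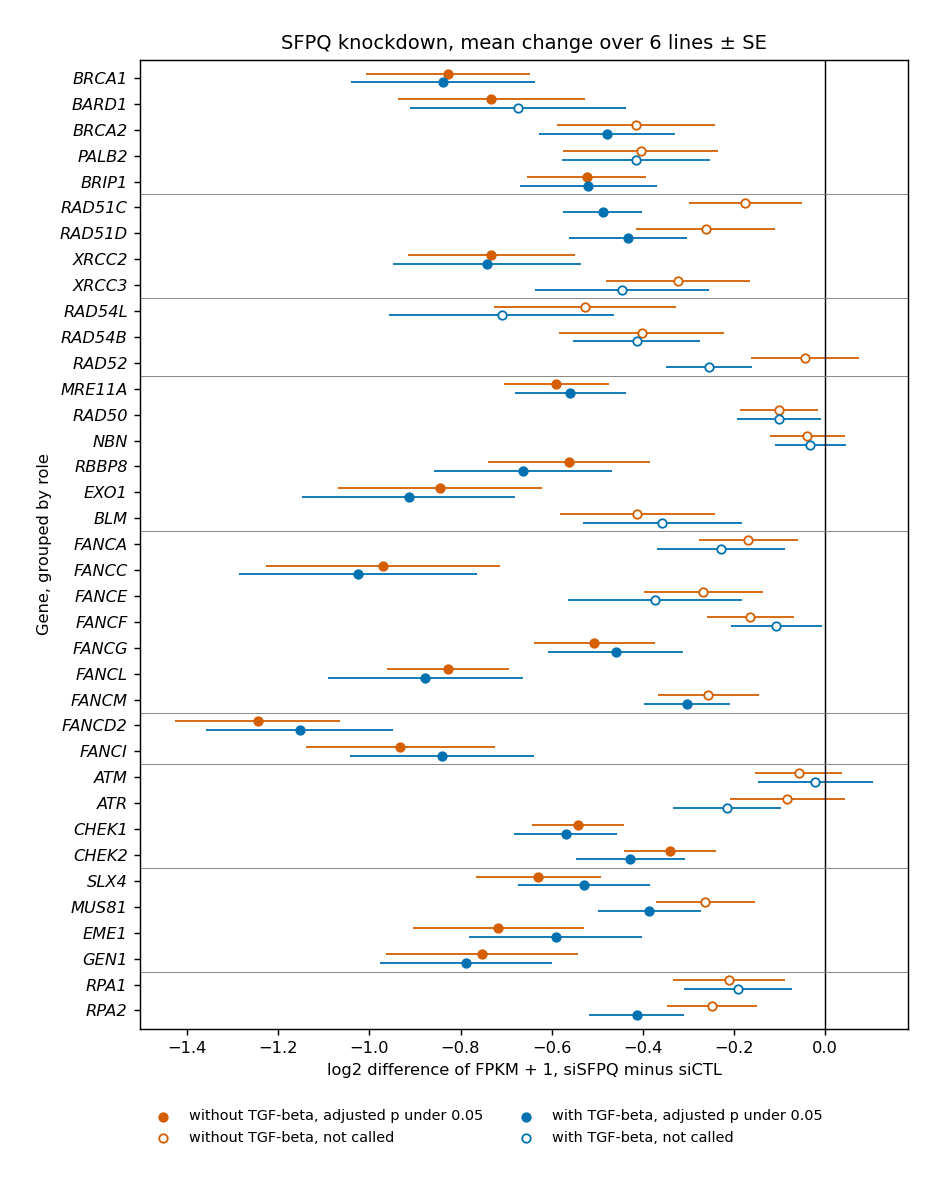
Mean change of each of the 37 genes over 6 lines (log2 difference of FPKM + 1, siSFPQ minus siCTL) with its SE, without TGF-beta in orange and with TGF-beta in blue; filled points have an adjusted p under 0.05 and lines separate the roles. All points lie left of 0, from -1.24 for FANCD2 to -0.02 for ATM.

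How many genes were called depended on single lines and on the scaling. Without TGF-beta the count was 16 without Hep3b, 9 without Huh7, 9 without HLE and 7 without SK-HEP1, beside 12.1%, 9.75%, 8.62% and 8.42% of all genes tested. With TGF-beta it was 23 without Hep3b, 13 without HLE and 10 without SK-HEP1, beside 18.7%, 16.6% and 14.8%. Under a common median ratio of the libraries 15 genes were called lower without TGF-beta, beside 11.5% of all genes, and 15 with it, beside 14.3%. After removal of each library's GC trend the counts were 15, beside 10.5%, and 13, beside 12.8%. With no filter on low values, when 19833 and 19891 genes were tested, 6 and 9 were called, beside 3.96% and 8.85%. RBBP8 and CHEK2 were the genes that lost their calls without TGF-beta under either scaling. With TGF-beta, BRCA2, CHEK2, EME1, FANCG, FANCM, MUS81 and RAD51D lost theirs under both, and BRIP1 and RPA2 after GC correction. The number of the 37 mean changes below 0 without TGF-beta was 34 under the median ratio, 32 after GC correction and 33 without HLE and SK-HEP1, with medians of -0.34, -0.29 and -0.22. The medians over all genes tested were 0.005, 0.03 and -0.04 in these fits. With TGF-beta the number below 0 was 34 under the median ratio and 33 after GC correction. The scalings moved the balance of calls over all genes without TGF-beta to 1171 higher and 1370 lower (median ratio) and to 1419 higher and 1270 lower (GC trend), against 804 higher and 1804 lower as deposited. With TGF-beta the balance was 1580 higher and 1715 lower, and 1864 higher and 1545 lower, against 1018 higher and 2621 lower as deposited. The GC correction moved the median change of all genes with TGF-beta to 0.03, against -0.09 as deposited, and that of the 37 genes to -0.31, against -0.46 as deposited. Genes called under each of the 6 fits that left out a line were BRCA1, CHEK1, FANCD2, FANCI, FANCL, MRE11A and SLX4 without TGF-beta and BRCA1, CHEK1, EXO1, FANCC, FANCD2, GEN1, MRE11A, RAD51C and RPA2 with it. BRCA1, CHEK1, FANCD2 and MRE11A were on both lists. The share of all genes that kept a call in each of these fits was not counted, so the lists are descriptions.

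The DNA around the transcription start of the genes with the largest falls is shown beside that of RAD52 and ATM, whose changes without TGF-beta were the smallest among the genes with such a window. NBN, which changed least of the set, has none here. Windows of 300 bases, from 250 before to 50 after the start, came from RefSeq on GRCh38.p14 for 33 of the 37 genes. Capitals mark matches on either strand to letters often found in promoters of growth and housekeeping genes: TTTCGCGC, TTTGGCGC and TTCCCGCC (E2F-like), TTTGAA (CHR-like), CCAAT (the CCAAT box), GGGCGG (SP1-like), CCGGAAG (ETS-like) and the palindrome of NRF1. GGGCGG can overlap TTCCCGCC on the other strand. Each window is written along the strand of its gene.
FANCD2, chr3:10026187-10026486, plus strand: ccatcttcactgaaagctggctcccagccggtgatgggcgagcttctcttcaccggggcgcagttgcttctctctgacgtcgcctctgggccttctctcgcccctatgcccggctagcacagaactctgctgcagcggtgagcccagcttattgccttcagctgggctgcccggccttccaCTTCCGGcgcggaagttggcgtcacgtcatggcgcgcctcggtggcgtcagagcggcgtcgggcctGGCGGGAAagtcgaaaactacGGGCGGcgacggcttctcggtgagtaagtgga
FANCC, chr9:95317660-95317959, minus strand: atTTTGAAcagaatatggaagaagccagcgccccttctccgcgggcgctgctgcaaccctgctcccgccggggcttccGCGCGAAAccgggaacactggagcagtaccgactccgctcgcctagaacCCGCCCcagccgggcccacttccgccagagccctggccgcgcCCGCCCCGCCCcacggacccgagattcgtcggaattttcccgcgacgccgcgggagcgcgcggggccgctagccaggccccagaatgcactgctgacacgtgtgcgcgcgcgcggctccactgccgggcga
RAD52, chr12:949645-949944, minus strand: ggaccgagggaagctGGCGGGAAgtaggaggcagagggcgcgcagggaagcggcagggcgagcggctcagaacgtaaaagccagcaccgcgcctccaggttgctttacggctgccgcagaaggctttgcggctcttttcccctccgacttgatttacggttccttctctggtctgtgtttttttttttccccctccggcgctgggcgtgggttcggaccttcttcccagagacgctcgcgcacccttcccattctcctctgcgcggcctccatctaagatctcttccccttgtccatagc
ATM, chr11:108222817-108223116, plus strand: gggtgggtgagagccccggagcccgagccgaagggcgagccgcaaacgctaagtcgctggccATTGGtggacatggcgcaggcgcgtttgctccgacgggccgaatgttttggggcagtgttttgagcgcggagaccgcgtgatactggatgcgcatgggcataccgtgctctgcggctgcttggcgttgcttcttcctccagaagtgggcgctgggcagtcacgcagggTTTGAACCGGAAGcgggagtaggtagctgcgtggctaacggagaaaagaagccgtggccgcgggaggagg

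The FANCD2 window holds TTCCCGCC on the opposite strand at -3 and GGGCGG at 18 from the start, and CCGGAAG on the opposite strand at -69. FANCC, the first of its 2 windows, holds TTTGAA at -248, TTTCGCGC on the opposite strand at -172 and GGGCGG, also on the opposite strand, at -123, -81 and -76. RAD52, the first of 2 windows, holds TTCCCGCC on the opposite strand at -235, and the ATM window, also the first of 2, holds CCAAT on the opposite strand at -188, TTTGAA at -20 and CCGGAAG at -14. Over the 45 windows of the set, TTCCCGCC was in 22.22% beside 3.16% of all 35116 windows, CCGGAAG in 31.11% beside 10.26%, GGGCGG in 71.11% beside 44.95% and CCAAT in 44.44% beside 34.61%. TTTCGCGC was in 6.67% beside 0.52%, TTTGGCGC in 0% beside 0.65%, TTTGAA in 6.67% beside 15.16% and the NRF1 palindrome in 4.44% beside 1.24%. Split by call without TGF-beta, GGGCGG was in 15 of 16 genes called lower and in 10 of 17 not called. TTTCGCGC was in 3 of 16 called (EXO1, GEN1 and FANCC) and 0 of 17 not called, while TTCCCGCC was in 5 of 16 called and 4 of 17 not called. CCAAT was in 6 of 16 called and 10 of 17 not called, CCGGAAG in 5 and 7, TTTGAA in 2 and 1, the NRF1 palindrome in 2 and 0, and TTTGGCGC in 0 and 0. Matches to letters describe these windows and were not tested against the changes.

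FANCD2 and FANCI form the ID complex, the pair that receives ubiquitin from the Fanconi core, and both fell. FANCD2 was at 1.22, 3.53 and 8.21 FPKM in siSFPQ cells (lowest, median and highest), against 6.44, 9.31 and 21.7 FPKM in siCTL cells. Each of the 6 lines had less of it in siSFPQ cells, although the groups overlapped because the lines differ in their starting level. The change of -1.24 ± 0.18 (SE, n = 6 lines; adjusted p = 0.00412 in limma) was the largest of the set, and the level left in siSFPQ cells was 18.1% of siCTL in HLE, 21.2% in SK-HEP1, 37.9% in Huh7, 45.3% in Huh1, 48.2% in HepG2 and 63.5% in Hep3b. With TGF-beta FANCD2 was at 1.35, 2.71 and 7.94 FPKM in siSFPQ cells, against 4.96, 9.26 and 16.1 FPKM in siCTL cells, a change of -1.15 ± 0.20 (adjusted p = 0.00581). FANCI was at 6.32, 12.3 and 28.9 FPKM in siSFPQ cells, against 13.4, 29.5 and 40.9 FPKM in siCTL cells. It was lower in every line, by 2.01 on the log2 scale in HLE but by 0.11 in Hep3b, with a mean change of -0.93 ± 0.21 (adjusted p = 0.0155). With TGF-beta FANCI was at 6.57, 11.2 and 31.3 FPKM in siSFPQ cells, against 10.2, 29.01 and 38.0 FPKM in siCTL cells, a change of -0.84 ± 0.20 (adjusted p = 0.0165, and 0.0504 without SK-HEP1). An annotated pseudogene of FANCD2 could share its reads. The same limit holds for MRE11A and RBBP8, with 1 annotated pseudogene each, and for RPA2, with 3.

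In the Fanconi core complex, 3 of 7 genes fell without TGF-beta and 4 of 7 with it, beside 15% and 21.8% of all genes tested. Each role of the set holds only 2 to 7 genes, so counts by role are descriptions. FANCL, the ubiquitin ligase of the complex, was at 4.45, 9.45 and 10.8 FPKM in siSFPQ cells, against 12.5, 14.8 and 18.8 FPKM in siCTL cells. The groups did not overlap, which held for no other gene of the set and for 0.55% of all genes tested in this direction. Its change was -0.83 ± 0.13 (adjusted p = 0.00564). With TGF-beta FANCL was at 2.47, 10.2 and 11.6 FPKM in siSFPQ cells, against 11.5, 14.1 and 19.4 FPKM in siCTL cells, and the groups then overlapped, as they did for all 37 genes with TGF-beta (0.666% of all genes tested did not), with a change of -0.88 ± 0.21 (adjusted p = 0.0173, and 0.0521 without SK-HEP1). VRK2, on the other strand, covers 18.7% of the exon bases of FANCL, and the strand used in counting is not stated. FANCC, a subunit that joins FANCE and FANCF, was at 0.417, 1.92 and 4.19 FPKM in siSFPQ cells, against 1.38, 5.41 and 8.94 FPKM in siCTL cells. It was lower in 5 of 6 lines, with 10.4% of the siCTL level left in HLE and 16.8% in SK-HEP1. Huh7 was the exception, at 130% of siCTL, and had the lowest siCTL level of FANCC of the 6 lines. The mean change was -0.97 ± 0.26 (adjusted p = 0.0269), and the call was lost without HLE or without SK-HEP1, with an adjusted p of up to 0.073. With TGF-beta FANCC was at 0.371, 2.03 and 3.73 FPKM in siSFPQ cells, against 1.88, 5.10 and 8.10 FPKM in siCTL cells, a change of -1.03 ± 0.26 (adjusted p = 0.0198). The lowest of these values, in HLE, rested on 19.7 estimated fragments. FANCG, which binds FANCA, changed by -0.51 ± 0.13 (adjusted p = 0.0253) and by -0.46 ± 0.15 with TGF-beta (adjusted p = 0.0429), calls that were lost without Huh1, HLE or SK-HEP1 in both comparisons. FANCM, the translocase that anchors the complex on DNA, was called only with TGF-beta, at -0.30 ± 0.09 (adjusted p = 0.0375, up to 0.0888 with a line left out). FANCA, FANCE and FANCF were not called, at -0.17, -0.27 and -0.16 without TGF-beta and -0.23, -0.37 and -0.11 with it. ZNF276, on the other strand, covers 23.6% of the exon bases of FANCA.

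**Figure D2:**
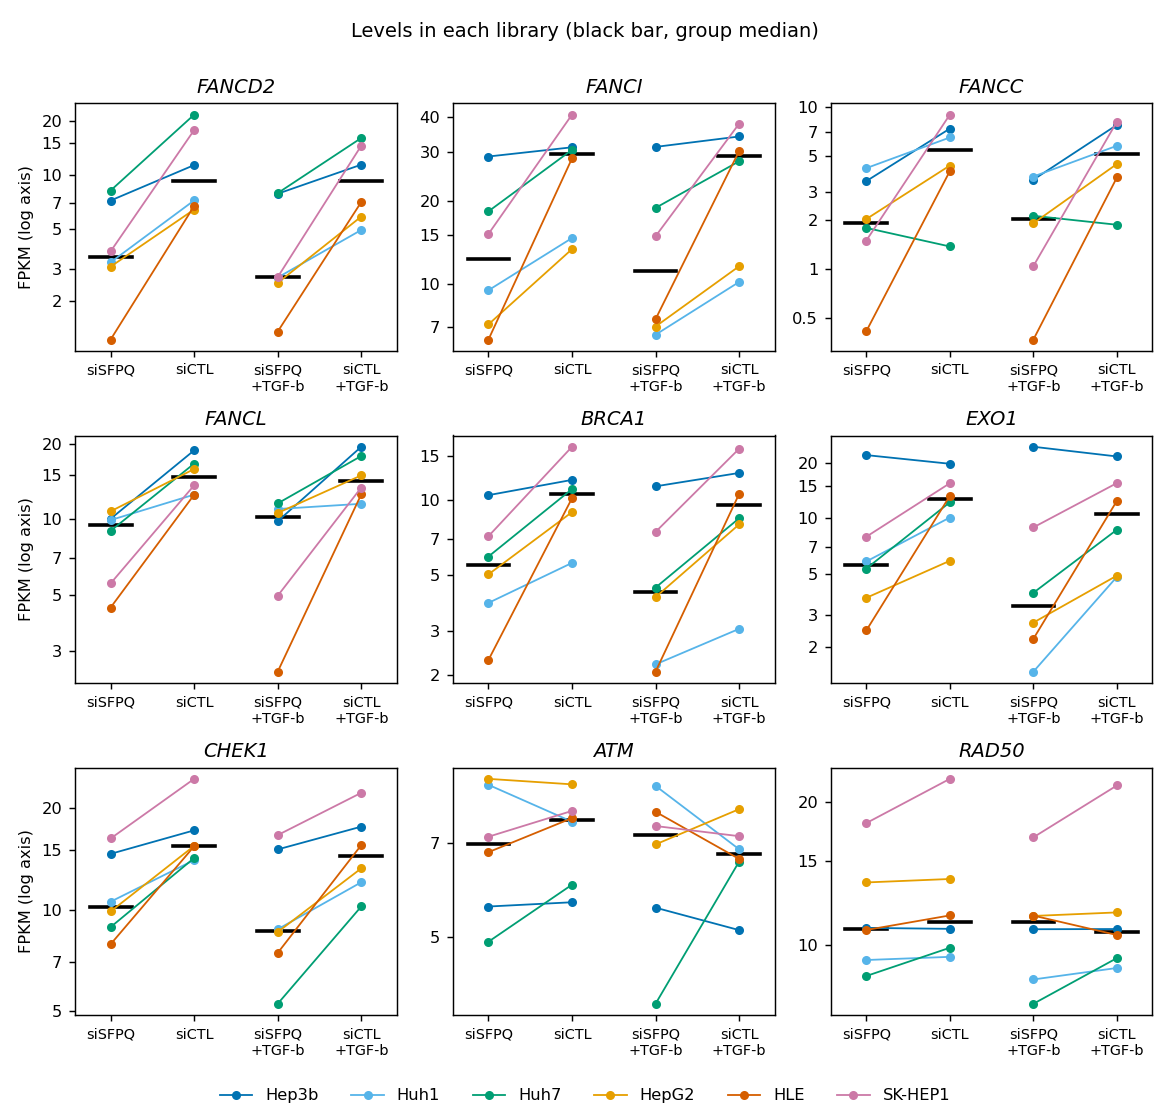
FPKM of 9 genes in each library on log axes whose ranges differ between panels, with siSFPQ left of siCTL for untreated and then TGF-beta-treated cells, points and thin lines coloured by cell line and black bars at the group median. FANCD2 slopes up towards siCTL in every line, FANCC does so except in Huh7, and the ATM and RAD50 lines run close to level in most lines.

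Of the BRCA complexes, 3 of 5 genes fell in each comparison, beside 15% (without TGF-beta) and 21.8% (with it) of all genes. BRCA1, a ubiquitin ligase that favours resection, was at 2.30, 5.50 and 10.4 FPKM in siSFPQ cells, against 5.61, 10.6 and 16.3 FPKM in siCTL cells. Every line had less BRCA1 in siSFPQ cells, while the groups overlapped, and it changed by -0.83 ± 0.18 (adjusted p = 0.0141). With TGF-beta BRCA1 was at 2.07, 4.28 and 11.3 FPKM in siSFPQ cells, against 3.06, 9.50 and 16.0 FPKM in siCTL cells, a change of -0.84 ± 0.20 (adjusted p = 0.0161). BARD1, its partner, changed by -0.73 ± 0.21 (adjusted p = 0.0323) and by -0.67 ± 0.24 with TGF-beta (adjusted p = 0.0575). The helicase gene BRIP1 changed by -0.52 ± 0.13 (adjusted p = 0.0218) and by -0.52 ± 0.15 with TGF-beta (adjusted p = 0.0293). Without TGF-beta both calls were lost when Huh7 or SK-HEP1 was left out, with adjusted p of up to 0.0867 for BARD1 and 0.053 for BRIP1, and that on BRIP1 with TGF-beta reached 0.075. BRCA2, which acts on the resected strand, was at 0.427, 1.90 and 4.68 FPKM in siSFPQ cells, against 1.14, 2.37 and 6.78 FPKM in siCTL cells, with higher values in siSFPQ cells of Hep3b and HepG2 and no call (-0.41 ± 0.17, adjusted p = 0.112). With TGF-beta it was at 0.444, 1.78 and 4.23 FPKM in siSFPQ cells, against 0.733, 2.40 and 7.19 FPKM in siCTL cells, lower in 6 of 6 lines and called at -0.48 ± 0.15 (adjusted p = 0.0379, up to 0.1 with a line left out). PALB2, the bridge between BRCA1 and BRCA2, was not called, at -0.40 and -0.41, and most of its fall lay in SK-HEP1 at -1.39.

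Among RAD51C, RAD51D, XRCC2 and XRCC3, related proteins that act on the resected strand, XRCC2 fell without TGF-beta, and XRCC2, RAD51C and RAD51D fell with it. XRCC2 changed by -0.73 ± 0.18 (adjusted p = 0.0218) and by -0.74 ± 0.21 with TGF-beta (adjusted p = 0.0261). Those calls were lost without Huh7, HLE or SK-HEP1, with adjusted p of up to 0.062 and 0.0763. RAD51C changed by -0.17 ± 0.12 (adjusted p = 0.333) and by -0.49 ± 0.09 with TGF-beta (adjusted p = 0.00559), where it was lower in 6 of 6 lines. The difference between its changes was -0.31 ± 0.11, with an adjusted p of 0.312 in the interaction. RAD51D changed by -0.26 and by -0.43 ± 0.13 with TGF-beta (adjusted p = 0.0335, up to 0.0804 with a line left out). XRCC3 was not called, at -0.32 and -0.45. KLC1, on the other strand, covers 76.7% of its exon bases, so reads of the pair cannot be told apart. The genes of RAD54L and RAD54B, motor proteins that move along DNA, and of RAD52, an annealing protein, gave 0 calls among 3 in both comparisons. Among 3 genes, 0 calls cannot be set apart from the 15% and 21.8% of all genes called lower. RAD54L changed by -0.53 and -0.71, RAD54B by -0.40 and -0.41, and RAD52 by -0.04 and -0.25. RAD54B shares 59.1% of its exon bases with FSBP on the same strand, and RAD54L 25.1% with LRRC41 on the other.

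In resection and dissolution of joined strands, 3 of 6 genes fell in both comparisons, beside 15% and 21.8% of all genes. Within the MRE11 complex the nuclease gene was called while the genes of its partners were not, a difference that was not tested. MRE11A, its nuclease, was at 3.44, 5.01 and 7.01 FPKM in siSFPQ cells, against 5.87, 8.12 and 10.5 FPKM in siCTL cells. Lower in 6 of 6 lines, MRE11A changed by -0.59 ± 0.12 (adjusted p = 0.0101), and by -0.56 ± 0.12 with TGF-beta (adjusted p = 0.0111). RAD50, its ATPase, was at 8.58, 10.8 and 18.1 FPKM in siSFPQ cells, against 9.42, 11.2 and 22.4 FPKM in siCTL cells, a change of -0.10 ± 0.09 (adjusted p = 0.413). NBN, the subunit that binds ATM, changed by -0.04 ± 0.08 (adjusted p = 0.76). With TGF-beta RAD50 and NBN changed by -0.10 and -0.03 and were again not called. EXO1, the exonuclease of long-range resection, was at 2.47, 5.59 and 21.96 FPKM in siSFPQ cells, against 5.88, 12.7 and 19.7 FPKM in siCTL cells. It was lower in 5 of 6 lines, with Hep3b the exception and the highest in both groups, and changed by -0.85 ± 0.22 (adjusted p = 0.0269, up to 0.0702 without Huh7 or SK-HEP1). With TGF-beta EXO1 was at 1.48, 3.34 and 24.4 FPKM in siSFPQ cells, against 4.82, 10.6 and 21.6 FPKM in siCTL cells, a change of -0.91 ± 0.23 (adjusted p = 0.0199). RBBP8, which encodes CtIP, changed by -0.56 ± 0.18 (adjusted p = 0.0477) and by -0.66 ± 0.19 with TGF-beta (adjusted p = 0.0312), calls that were lost without Huh7, HLE or SK-HEP1 in both comparisons, with adjusted p of up to 0.132 and 0.0894. BLM, a helicase that resolves joined strands, was not called, at -0.41 and -0.36. RPA1 and RPA2 code for the large and middle subunits of the single-strand binding complex. Only RPA2 was called, with TGF-beta, at -0.41 ± 0.10 (adjusted p = 0.0187), beside -0.25 ± 0.10 without it (adjusted p = 0.098). RPA1 stood at -0.21 and -0.19.

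Of the 4 checkpoint kinase genes, 2 were called lower in each comparison, beside 15% and 21.8% of all genes. These were the effector kinase genes CHEK1 and CHEK2, while the apical kinase genes ATM and ATR were not called. CHEK1 was at 7.91, 10.2 and 16.3 FPKM in siSFPQ cells, against 14.04, 15.5 and 24.4 FPKM in siCTL cells. It was lower in 6 of 6 lines and changed by -0.54 ± 0.10 (adjusted p = 0.00852). With TGF-beta it was at 5.27, 8.68 and 16.7 FPKM in siSFPQ cells, against 10.2, 14.4 and 22.2 FPKM in siCTL cells, a change of -0.57 ± 0.11 (adjusted p = 0.00837). CHEK2 was at 8.14, 10.1 and 22.8 FPKM in siSFPQ cells, against 9.43, 14.8 and 25.1 FPKM in siCTL cells. Lower in 6 of 6 lines, it changed by -0.34 ± 0.10 (adjusted p = 0.0386), but only the fit without Huh7 kept the call when a line was left out. The call was also lost under the median ratio (-0.26, adjusted p = 0.0873), after GC correction (-0.22, adjusted p = 0.126) and with no filter (adjusted p = 0.0752). With TGF-beta CHEK2 was at 5.33, 8.71 and 20.8 FPKM in siSFPQ cells, against 7.97, 13.5 and 22.8 FPKM in siCTL cells, a change of -0.43 ± 0.12 (adjusted p = 0.0261, up to 0.0711 with a line left out). Annotated pseudogenes of CHEK2, 4 in number, could share its reads. ATM was at 4.91, 6.96 and 8.81 FPKM in siSFPQ cells, against 5.66, 7.60 and 8.64 FPKM in siCTL cells. Its change was -0.06 ± 0.10 (adjusted p = 0.693), lower in 4 lines and higher in 2, and turned to 0.02 under the median ratio and 0.07 after GC correction. With TGF-beta ATM was at 3.93, 7.198 and 8.59 FPKM in siSFPQ cells, against 5.12, 6.72 and 7.90 FPKM in siCTL cells (-0.02 ± 0.13, adjusted p = 0.91). It was then lower in 2 lines and higher in 4. ATR was at 4.23, 6.14 and 9.08 FPKM in siSFPQ cells, against 3.39, 7.54 and 9.87 FPKM in siCTL cells, lower in 3 lines and higher in 3 (-0.08 ± 0.13, adjusted p = 0.665, and 0.05 after GC correction). With TGF-beta ATR was at 3.12, 5.25 and 8.01 FPKM in siSFPQ cells, against 3.18, 7.13 and 8.99 FPKM in siCTL cells (-0.22 ± 0.12, adjusted p = 0.189). It was then lower in 6 of 6 lines, without a call. That an apical and an effector kinase differ from each other was not tested.

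The nucleases that cut branched DNA gave 3 calls of 4 without TGF-beta and 4 of 4 with it, beside 15% and 21.8% of all genes. SLX4, the scaffold on which they assemble, changed by -0.63 ± 0.14 (adjusted p = 0.014) and by -0.53 ± 0.14 with TGF-beta (adjusted p = 0.024), lower in 6 of 6 lines each time. EME1, the partner of MUS81 and covered over 16.4% of its exon bases by LRRC59 on the other strand, changed by -0.72 ± 0.19 (adjusted p = 0.0252) and by -0.59 ± 0.19 (adjusted p = 0.0429). GEN1, a resolvase of Holliday junctions, changed by -0.75 ± 0.21 (adjusted p = 0.0322) and by -0.79 ± 0.19 (adjusted p = 0.0163). MUS81 changed by -0.26 ± 0.11 (adjusted p = 0.109) and by -0.39 ± 0.11 with TGF-beta (adjusted p = 0.0299). CFL1, on the other strand, covers 13.9% of the exon bases of MUS81. The calls on EME1 and MUS81, that on SLX4 with TGF-beta and that on GEN1 without it were lost under at least 1 fit that left out a line, with adjusted p of up to 0.117.

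**Figure D3:**
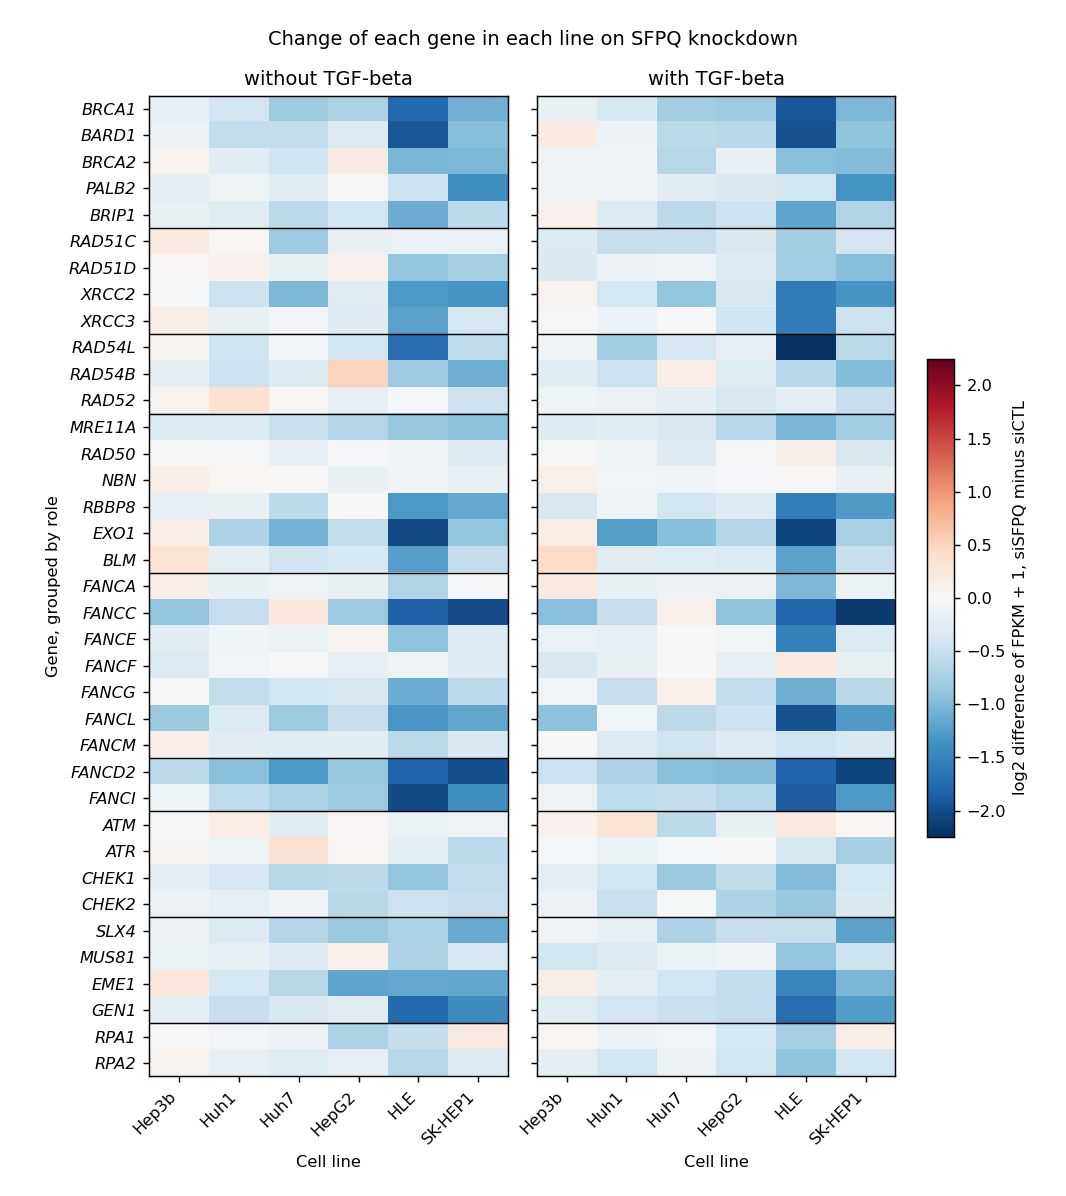
Change of each of the 37 genes in each line (log2 difference of FPKM + 1, siSFPQ minus siCTL) without TGF-beta on the left and with it on the right, blue for lower and red for higher in siSFPQ cells, with genes grouped by role. HLE and SK-HEP1 hold the darkest columns and Hep3b the palest, where FANCC, FANCL and FANCD2 stand out.

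The lines differed widely. The median change of the 37 genes without TGF-beta was -0.88 in HLE and -0.60 in SK-HEP1, and lay at -0.30 in Huh7, -0.27 in HepG2, -0.24 in Huh1 and -0.03 in Hep3b. Falls of at least 0.5 on the log2 scale were seen for 28 of the 37 genes in HLE, 24 in SK-HEP1 and 13 in Huh7. The shares of all genes tested at such falls were 20.7%, 26% and 13.7%. In HepG2, Huh1 and Hep3b the counts were 12, 7 and 3, beside 11.8%, 4.6% and 9.93%. SFPQ left in siSFPQ cells was 9.49% of siCTL in HLE and 13.1% in SK-HEP1, and 24.2% in Hep3b, 26.0% in Huh7, 40.4% in Huh1 and 45.2% in HepG2. Hep3b, with less SFPQ left than Huh7, Huh1 or HepG2, had the smallest median change. With TGF-beta the order of the medians began with HLE at -1.004 and SK-HEP1 at -0.68 and ended with Hep3b at -0.09. Without HLE and SK-HEP1, 6 of the 37 genes were called lower without TGF-beta, beside 5.69% of all genes, and 8 with it, beside 13.7%. Without Huh7 and HepG2, which hold the shallowest libraries, 3 and 6 were called, beside 6.26% and 11.1%.

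G1/S and G2/M genes were also lower. Called lower in siSFPQ cells without TGF-beta were 19 of 30 G1/S genes, with a median of -0.66, and 24 of 28 G2/M genes, with a median of -0.74. These are 63.3% and 85.7%, beside 15% of all genes tested. With TGF-beta the counts were 17 of 30 and 25 of 28, or 56.7% and 89.3%, beside 21.8% of all genes. PCNA, the replication clamp, changed by -0.66 ± 0.11 (adjusted p = 0.00549), SLBP, which binds histone RNA, by -0.49, and the polymerase gene POLA1 by -1.08. TOP2A, the topoisomerase of dividing cells, changed by -1.46 ± 0.24 (adjusted p = 0.0059), and the spindle genes TPX2 and HMMR by -1.39 each. By line, the G2/M median was -1.66 in HLE, -0.97 in SK-HEP1, -0.85 in Huh7, -0.65 in Huh1, -0.47 in HepG2 and 0.10 in Hep3b, and the G1/S median was -1.54 in HLE, -0.46 in SK-HEP1, -0.64 in Huh7, -0.47 in Huh1, -0.44 in HepG2 and -0.09 in Hep3b. SK-HEP1, second to HLE in the change of the 37 genes, was thus close to Huh1 and HepG2 in its G1/S median. In Hep3b, where both lists were close to 0, FANCC changed by -0.89, FANCL by -0.84 and FANCD2 by -0.59. They were the only genes of the set there at -0.5 or below. These 3 of the 37 genes stand beside 9.93% of all genes tested at -0.5 or below in Hep3b, a share that the set did not exceed. The part of the cell cycle genes in the change of the set was not tested, and in these bulk libraries fewer dividing cells and less RNA per cell cannot be told apart.

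**Figure D4:**
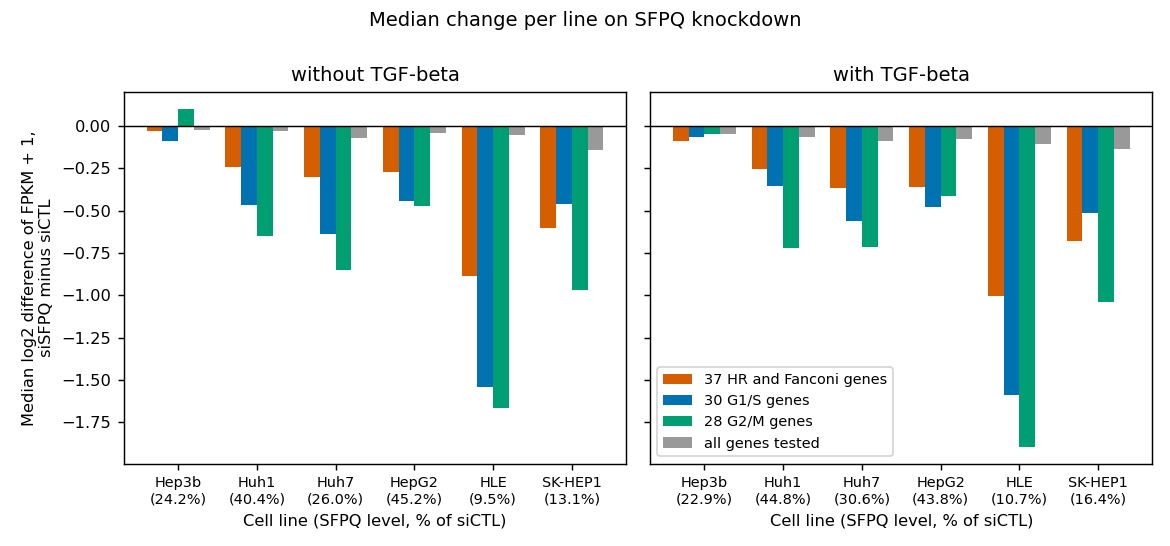
Median change per line (log2 difference of FPKM + 1, siSFPQ minus siCTL) of the 37 genes, 30 G1/S genes, 28 G2/M genes and all genes tested, without TGF-beta on the left and with it on the right; the percentage under each line is its SFPQ level in siSFPQ cells as a share of siCTL. HLE has the deepest bars and Hep3b bars near 0, while the grey bars of all genes lie between -0.14 and -0.03.

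Other genes of the same pathways were taken from a separate list of 45. Of these, 21 were lower and 1 higher in siSFPQ cells without TGF-beta, with a median of -0.27, and 20 were lower and 1 higher with it. The shares called lower were 46.7% and 44.4%, beside 15% and 21.8% of all genes tested. BRCC3, a deubiquitinase in a BRCA1 complex, changed by -1.47 ± 0.23 (adjusted p = 0.00522), MND1, a meiotic recombination factor, by -1.10, and RAD51B, a relative of RAD51C, by -0.86. WDR48, a cofactor of the FANCD2 deubiquitinase USP1, was the gene that rose, by 0.28 ± 0.08 (adjusted p = 0.0362), and was named after its value was seen. Of 7 mismatch repair genes 1 was lower without TGF-beta, a share of 14.3% beside the 15% of all genes. With TGF-beta 2 were lower, a share of 28.6% beside 21.8%. Of 12 end joining genes 5 were lower without TGF-beta and 4 with it, 41.7% and 33.3% beside 15% and 21.8% of all genes. They were led by PARP1 at -1.39 ± 0.23 (adjusted p = 0.0059), NHEJ1 at -0.78 and XRCC4 at -1.03. None of these lists was tested against the 37 genes.

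Gene span, GC content and transcript length were set beside the changes. Spearman's rho over the 37 genes between the change without TGF-beta and the span was -0.08, with GC content 0.02 and with transcript length 0.00, beside -0.13, 0.14 and 0.00 over 11582 genes. The genes share their libraries, so these are descriptions. The 7 genes that span over 100 kb had a median change of -0.52, beside -0.41 for the other 30, and over all genes tested those medians were -0.16 and -0.05. FANCC, the longest at 328 kb, was among the largest falls, while ATM at 147 kb and ATR at 130 kb were among the smallest.

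The response to TGF-beta itself was read in each siRNA group. In siSFPQ cells, 1 of the 37 genes was lower with TGF-beta than without it, beside 2.9% of all 11883 genes tested, and 0 were higher, beside 2.26%, with a median change of -0.11 beside -0.06. Under the median ratio 0 of the 37 genes were called, and the calls over all genes were 303 higher and 109 lower, against 268 higher and 345 lower as deposited. Under the stricter filter on low values 5 of the 31 genes that passed were lower, beside 6.31% of all genes. FANCE, which binds FANCD2 for the core complex, was at 2.55, 4.11 and 6.01 FPKM in siSFPQ + TGF-beta cells, against 3.74, 5.88 and 7.43 FPKM in siSFPQ cells. The groups overlapped, and FANCE was lower in 6 of 6 lines, at -0.37 ± 0.08 (adjusted p = 0.0377 in limma). That call was kept without Hep3b (adjusted p = 0.0412) and lost without each of the other lines in turn, with adjusted p of 0.0616 without SK-HEP1 to 0.0971 without Huh1, and under a common median ratio (0.0507). In siCTL cells FANCE was at 2.68, 5.96 and 11.5 FPKM in siCTL + TGF-beta cells, against 4.03, 7.49 and 10.6 FPKM in siCTL cells, a change of -0.26 ± 0.08 that was not called (adjusted p = 0.195). Its interaction was -0.11 ± 0.10 (adjusted p = 0.697). In siCTL cells 0 of the 37 genes were called, beside 0.0987% of all 12163 genes tested in either direction, while 7 of the 37 and 1908 of all genes had an unadjusted p under 0.05, and the median change was -0.09 beside -0.03. The deepest response of a line was in Huh1, with a median of -0.25 in siSFPQ cells and -0.25 in siCTL cells, where the G1/S medians were -0.47 and -0.60.

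**Figure D5:**
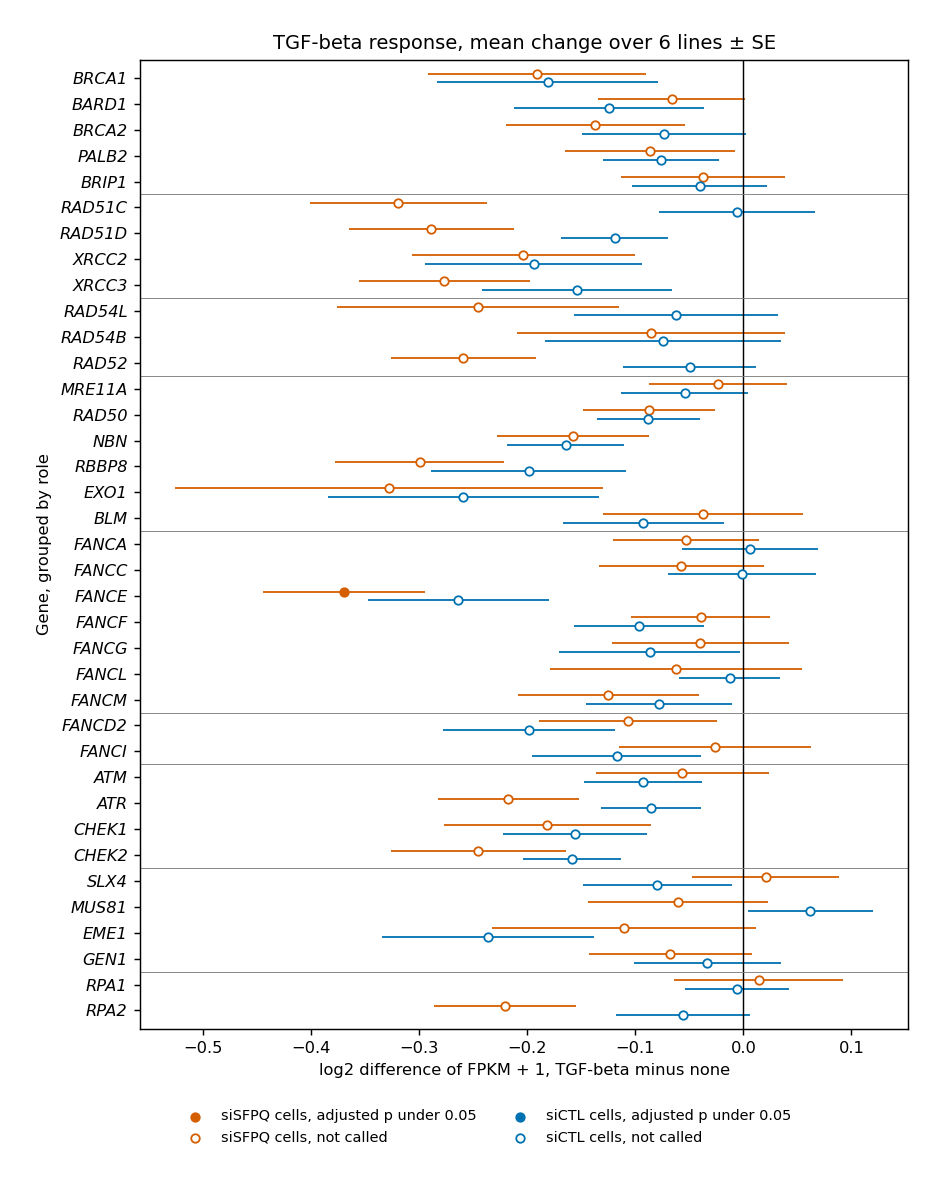
Mean change of each of the 37 genes over 6 lines on TGF-beta (log2 difference of FPKM + 1, TGF-beta minus none) with its SE, in siSFPQ cells in orange and in siCTL cells in blue; filled points have an adjusted p under 0.05. FANCE in siSFPQ cells, at -0.37, carries the single filled point, and most others lie between -0.3 and 0.

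In siCTL cells without TGF-beta the set itself varied between lines. SK-HEP1 had the highest level for 15 of the 37 genes, and Huh1 had the lowest for 18 and HepG2 for 12, with a median level of 13.7 FPKM in SK-HEP1, 7.55 FPKM in Huh1 and 7.04 FPKM in HepG2. The highest and lowest line differed least for MUS81, by 1.39 times, FANCL, by 1.501 times, and ATM, by 1.53 times. They differed most for RAD54B, by 6.56 times between Huh7 and HepG2, and FANCC, by 6.46 times between SK-HEP1 and Huh7. On this scale per kilobase, RPA1 and RPA2 had the highest median levels of the set, with 39.0 and 40.4 FPKM, and BRCA2 the lowest, with 2.37 FPKM. A single library stands behind each of these levels, so differences between lines have no replicate check.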

How the data were processed

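Polyadenylated RNA of 24 libraries was sequenced on an Illumina instrument from Trizol extracts and a VAHTS kit, per the labels' protocols. TopHat2 2.1.1 and Cufflinks 2.2.1 with build hg19 are named, per the submitters' processing notes, while sources used here give no annotation, strand setting or filter. The table the authors deposited is named for raw counts but holds FPKM, so the count test that had been planned gave way to a linear model of log2(FPKM + 1) that kept its samples and its block, the line (limma 3.58.1, R 4.3.3). Tests were two-sided and used eBayes with trend and robust shrinkage and 5 residual degrees of freedom. Estimates under 1e-06 were set to 0, 1627 short RNA rows of 23284 were left out, and 2 empty columns were not used.

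Lines pair the libraries, as labels give every library's line, and deviations from group means correlated at 0.874 to 0.978 within a line and at -0.514 to 0.41 between libraries that differ in line and group. With 1 library per line and group, p-values measure the spread between lines. No 2 libraries were identical. Depth was estimated from low values of 2323 genes with an assumed fragment length of 180 bases and used in no test. Alternatives were another pseudocount, filters, a median ratio of libraries, no block, eBayes without trend, and each line left out. GC correction and leaving out pairs of lines were added after the data were seen. The 37 genes and the other lists were chosen with earlier results of these data known. All 37 could be named, with levels of each group for those named by a rule: main regulators and kinases, the 5 largest called falls of either knockdown comparison, calls of the TGF-beta comparisons, and, of each other list, up to 3 called genes with the smallest p on knockdown without TGF-beta. MRE11A and RAD50 levels were added after their values were seen. Simulated data were used to test the fit. Span, GC content and exon overlaps came from GENCODE on GRCh38 (21601 of 23284 rows matched), and promoter windows from RefSeq.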

Additional observations from a re-analysis of the deposited data

Results flagged for a closer look

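In groups of 6 lines, a line was marked where its gap to the nearest other line, as a share of the whole range, passed Dixon's critical value for 6 values. Of 233 sets of 6 values tested, 26 had such a line, and chance marks about 1 in 20. The values below are log2 changes of FPKM + 1 in the line that stood apart, unless named as levels.

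On knockdown without TGF-beta, SK-HEP1 stood lowest for PALB2 (-1.39, the other lines -0.47 to -0.01), Huh7 for RAD51C (-0.82, others -0.17 to 0.20), and HLE for RAD54L (-1.71, others -0.57 to 0.07) and FANCE (-0.91, others -0.29 to 0.07). With TGF-beta the same lines stood lowest for PALB2 (-1.34 in SK-HEP1), RAD54L (-2.22 in HLE) and FANCE (-1.53 in HLE), and HLE also for XRCC3 (-1.57) and FANCA (-1.004). Hep3b stood highest for FANCM, at 0.015, while the others lay between -0.45 and -0.29.

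On TGF-beta in siSFPQ cells, HepG2 stood lowest for BRCA2 (-0.48), Huh1 for EXO1 (-1.46, others -0.36 to 0.15) and FANCI (-0.47), and Huh7 for ATR (-0.43). In siCTL cells Huh1 stood lowest for FANCM (-0.35) and Huh7 highest for ATM (0.10).

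In the difference between the knockdown changes with and without TGF-beta, HepG2 stood lowest for PALB2 (-0.31), HLE for FANCE (-0.62) and Huh7 for ATR (-0.36). Standing highest were Hep3b for BRIP1 (0.26), HLE for RAD50 (0.22), and Huh7 for FANCG (0.52) and RPA2 (0.14). Huh7 with siSFPQ and TGF-beta is the shallowest library, at 6070000 estimated fragments, and the part of depth in these values was not tested.

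Among levels, EXO1 in Hep3b stood highest at 24.4 FPKM in siSFPQ + TGF-beta cells, where the other lines reached 8.92 FPKM, and at 21.96 FPKM in siSFPQ cells, where the others reached 7.94 FPKM. CHEK1 in siCTL cells was highest in SK-HEP1, at 24.4 FPKM, with the others between 14.04 and 17.2 FPKM.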

How the results depend on the processing

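Of the 37 genes, the count called lower on knockdown without TGF-beta (17) was 6 with no filter, 0 with no replicate block (11 at an unadjusted p under 0.05), 6 without HLE and SK-HEP1, 3 without Huh7 and HepG2, and 7 to 16 with a line left out. Over all genes, in either direction (2608 called), these counts were 1152, 0 (633 unadjusted), 870, 987 and 1383 to 2205. With TGF-beta (22 genes) they were 9, 0 (7 unadjusted), 8, 6 and 10 to 23, and 13 after GC correction, and over all genes in either direction (3639) 2417, 0 (734 unadjusted), 2096, 1684 and 2380 to 2989. For TGF-beta in siSFPQ cells (1 gene) the count was 5 under the stricter filter, 0 with no filter, the median ratio, no block or without either pair of lines, and 0 to 2 with a line left out. Over all genes in either direction (613) it was 15 with no filter, 0 with no block, 1 without HLE and SK-HEP1, 66 without Huh7 and HepG2, and 34 to 421 with a line left out. In siCTL cells (12 of all genes) it was 0 with no filter, no block or without HLE and SK-HEP1, 38 under the stricter filter, 1 without trend, 5 after GC correction, 4 without Huh7 and HepG2, and 0 to 25 with a line left out. The interaction (34 of all genes) gave 13 with pseudocount 0.1, 4 with no filter, 0 with no block or an additive line term, 15 without trend, 7 without HLE and SK-HEP1, and 8 to 29 with a line left out. None of the 37 genes was called in these last 2 comparisons under any alternative run. Under at least 1 alternative the changes of ATM, ATR, NBN, RAD50, RAD51D and RAD52 without TGF-beta, and of ATM, FANCF, NBN and RAD50 with it, were above 0, none of them called in that comparison. ATM without TGF-beta was 0.017 under the median ratio and 0.071 after GC correction. With TGF-beta it was 0.078 and 0.14, 0.16 without Huh7 and HepG2, and -0.083 to 0.098 with a line left out, above 0 without Huh7 or HepG2. ATR without TGF-beta was 0.052 after GC correction, 0.082 without HLE and SK-HEP1, and -0.17 to 0.021 with a line left out, above 0 without SK-HEP1. The causes were not tested. The block is the line, which pairs the libraries by the labels. Depth limits the low genes most, with 19 of the 37 under 100 estimated fragments in some library.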
